A study of Chimonocalamus delicatus with 27 samples.

Results

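The cellulose synthase superfamily of Chimonocalamus delicatus, a fragrant bamboo, was taken as every gene whose deposited description contains the words cellulose synthase, in upper or lower case. It held 94 of the 55972 genes in the table of growth stages and 95 of the 57356 genes in the table of plant parts. The tables shared 92 of these identifiers, all with PH02Gene numbers, and the other 2 and 3 had MSTRG numbers, which are not comparable between the tables. RNA sequencing gave 15 libraries of the growth stages, from shoots and from stems of 0.5, 1, 2 and 3 years, and 12 libraries of plant parts, from leaves, branches, rhizomes and stems. The age of that last stem is not stated in the labels, and it is called the part-set stem here. Each of the 9 groups had 3 libraries. The labels name no treatment and no mutant, and do not say whether the libraries of a group came from separate plants. Each p-value therefore reflects only library-to-library spread, part or all of which could be technical. The growth-stage and plant-part libraries were not compared with each other.

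Cellulose synthases, the CESA proteins, are the catalytic subunits of the plasma membrane complexes that spin cellulose microfibrils into the plant cell wall. In rice, CESA4, CESA7 and CESA9 serve the thick secondary walls laid down after a cell has stopped growing, and other CESA proteins serve the primary walls of growing cells. The cellulose synthase-like (CSL) proteins share the same catalytic fold and make other wall polysaccharides: in grasses, CSLF and CSLH proteins make mixed-linkage glucan, and CSLD proteins have been tied to tip growth and to new cell plates. Cellulose synthase-interactive (CSI) proteins are not enzymes, and in Arabidopsis they join the complexes to cortical microtubules. A bamboo culm reaches its full height as a shoot within weeks, and its walls thicken and lignify later.

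The split between subfamilies followed the deposited descriptions and symbols, which name similar genes of other plants. The growth-stage table held 46 CESA genes, of which 6 had the symbols CESA4, CESA7 or CESA9 (2 of each, called CESA4/7/9 here) and 40 were other CESA genes. There were also 19 CSLD, 5 CSLE, 4 CSLF, 2 CSLG and 4 CSLH genes, 10 genes described as cellulose synthase-1-like, and 4 CSI genes. The plant-part table had 1 more of the other CESA genes and otherwise the same counts. Levels are in FPKM, fragments scaled by transcript length and library size, on which genes can be compared with each other. A gene was tested if its FPKM reached 1 in 3 or more libraries of the set, which left 42 members in the growth stages and 43 in the plant parts. The filter can let a gene pass through 1 high group, so counts over the tested members do not speak for the whole superfamily. In the plant parts 4 members passed only with their leaf libraries counted, the CSLF genes PH02Gene44463 and PH02Gene44464, the CSLG gene PH02Gene43986 and the CSLD gene PH02Gene50852. In the growth stages PH02Gene10081 (CSLG) passed only through the shoot, PH02Gene44464 only with the 3-year stem, and PH02Gene33914 (CSLD) only with its shoot and 1-year libraries together. Such genes had to be high there, so their values in those groups are descriptions. PH02Gene43986, PH02Gene50852 and PH02Gene33914 were named after their values were seen. All 6 CESA4/7/9 genes and all 4 CSI genes were tested in both sets. No more than 17 of the other CESA genes and 6 of the CSLD genes passed in either set. Of the 94 growth-stage members, 31 were at 0 in every library, as were 33 of the 95 plant-part members. The 10 cellulose synthase-1-like genes, with the symbol CSLF6, were the quietest subfamily. In the growth stages 9 of them were at 0 in every library and the highest value was 0.210 FPKM, and in the plant parts all 10 were at 0. They do not stand for every gene of that symbol. PH02Gene46338, also with the symbol CSLF6, is described as a mixed-linked glucan synthase and so falls outside the superfamily as taken here. It averaged 12.2 FPKM in the 1-year stem and 5.25 FPKM in the 3-year stem. Close copies can share reads, so the split of reads between CESA genes of 1 symbol is uncertain.

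Expected counts per library summed to between 8615092 and 12422327 in the growth stages and between 6257623 and 9010973 in the plant parts. At these depths 3 counts correspond to between 0.242 and 0.348 CPM (counts scaled to library size) in the first set and between 0.333 and 0.479 CPM in the second, which covers counting error only. Replicate spread differed strongly between groups. Libraries of the 0.5-year stem had a biological coefficient of variation of 5.40%, against between 23.8% and 43.2% in the other growth stages. Pairs of 0.5-year libraries gave a chi-square per degree of freedom of 1.78 to 2.50, above sampling noise, whereas pairs within the other growth stages gave 13.2 to 53.8. The 3 were counted as 3 libraries, and each comparison with them was repeated with their counts summed to 1 sample. Rhizome libraries varied most, at 58.1%, and rhizome libraries 2 and 3 had the lowest correlation of any pair in a group, at 0.745. Lignin enzymes (laccases and cinnamyl alcohol dehydrogenases), markers of lignifying tissue, summed to 1065 FPKM in shoot library 3, against 484 and 524 FPKM in shoot libraries 1 and 2.

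The 6 CESA4/7/9 genes were at their highest in the 0.5-year stem and near 0 in the 3-year stem. Their summed FPKM was 211, 238 and 673 in the 3 shoot libraries, 884, 878 and 897 in the 0.5-year stem, 96.6, 24.2 and 202 in the 1-year stem, 3.58, 132 and 2.20 in the 2-year stem, and 5.05, 3.18 and 1.48 in the 3-year stem. The 0.5-year libraries were thus above every other growth-stage library, and the 3-year libraries were below every shoot, 0.5-year and 1-year library. They made up 54.3%, 53.6% and 55.3% of all CESA FPKM in the 0.5-year stem, against 14.9%, 11.8% and 31.5% in the shoot. In the 3-year stem this share was 1.51%, 1.02% and 0.407%. Levels within a stage were also uneven. 2-year library 2 held 132 FPKM where libraries 1 and 3 of that stage held 3.58 and 2.20, and it also had the highest lignin enzyme sum of its stage, 214 FPKM against 130 and 120 FPKM. The part of such tissue differences in these results was not tested, and in bulk samples fewer cells of a type and less RNA per cell cannot be told apart.

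**Figure D1:**
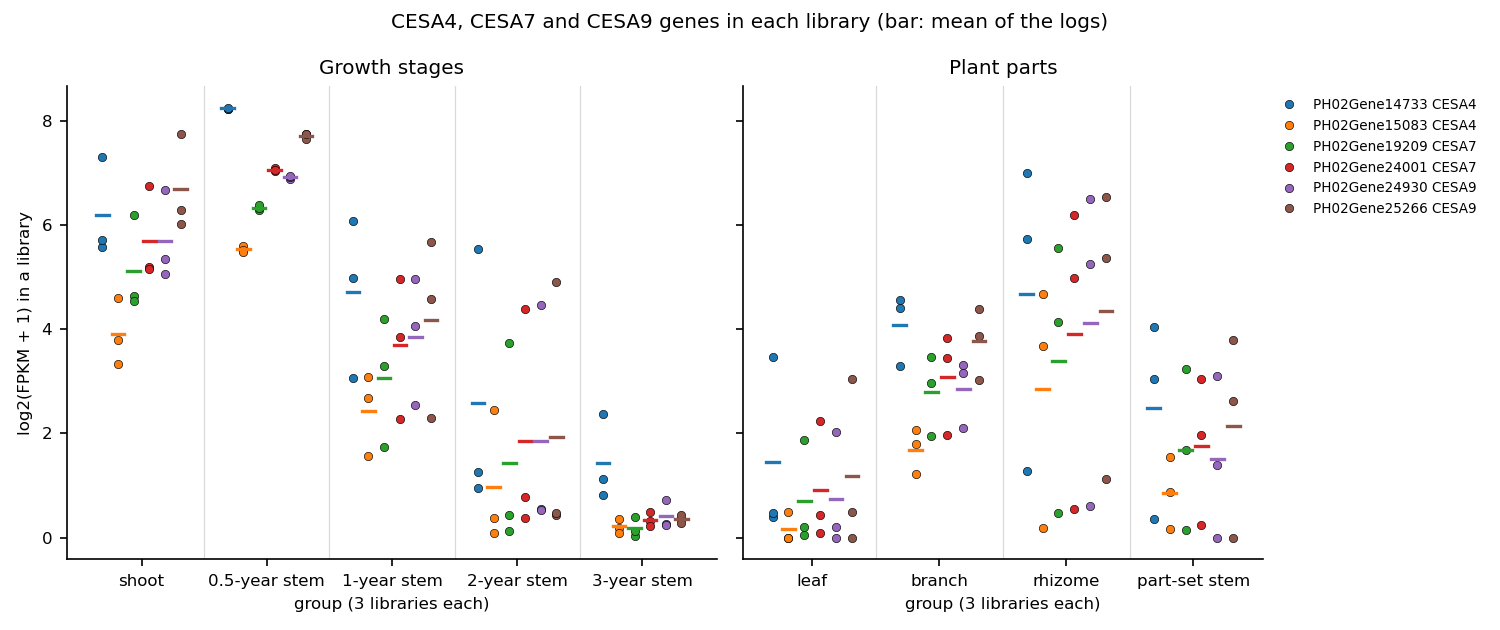
Level of each CESA4/7/9 gene in each library, on a log2(FPKM + 1) axis, for the growth stages (left) and the plant parts (right), with points for libraries and bars for the mean of the logs of 3 libraries. The 0.5-year points lie close together and high, at 299 to 304 FPKM for PH02Gene14733, whereas 2-year library 2 and rhizome library 3 lie far from the other libraries of their groups.

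PH02Gene14733, a CESA4 gene, was the highest of the 6 in 12 of the 15 growth-stage libraries and in 11 of the 12 plant-part libraries. It had 46.7, 51.2 and 156 FPKM in the shoot, 299, 299.6 and 304 in the 0.5-year stem, 30.6, 7.36 and 66.8 in the 1-year stem, 1.39, 45.3 and 0.921 in the 2-year stem, and 4.16, 1.19 and 0.768 in the 3-year stem. In the other 3 growth-stage libraries, all shoots, PH02Gene25266, a CESA9 gene, was the highest. PH02Gene25266 had 63.4, 77.1 and 215 FPKM in the shoot, 214, 199.8 and 213 in the 0.5-year stem, 22.8, 3.89 and 49.8 in the 1-year stem, 0.351, 28.9 and 0.381 in the 2-year stem, and 0.288, 0.351 and 0.208 in the 3-year stem. The CESA7 gene PH02Gene24001 followed the same order of stages, at 130, 135 and 132 FPKM in the 0.5-year stem, against 35.5, 34.7 and 106 FPKM in the shoot. The second CESA4 gene, PH02Gene15083, was the lowest of the 6 in 14 growth-stage libraries and in 10 plant-part libraries.

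The make-up of the CESA4/7/9 sum differed between the shoot and the 0.5-year stem. CESA4 symbols held 39.2%, 39.2% and 38.7% of it in the 0.5-year stem, against 26.5%, 27% and 26.7% in the shoot. CESA9 symbols held 37.4%, 36.4% and 37.3% in the 0.5-year stem, against 45.4%, 49.0% and 46.9% in the shoot. CESA7 symbols held 23.4%, 24.4% and 23.9% in the 0.5-year stem, against 28.1%, 24% and 26.4% in the shoot. The libraries of the 2 stages did not overlap for CESA4 or CESA9 and did overlap for CESA7. In the 1-year stem the CESA4 share was 37.2%, 38.5% and 36.8%, close to that of the 0.5-year stem although the sum was much lower. Branches averaged 36.1% CESA4 and 37.4% CESA9, and rhizomes 35.1% and 40.9%. Within the symbols 1 copy led: in the 0.5-year stem PH02Gene14733 held 87.0% of CESA4, PH02Gene24001 62.4% of CESA7 and PH02Gene25266 63.5% of CESA9. These shares are descriptions and were not tested.

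**Figure D2:**
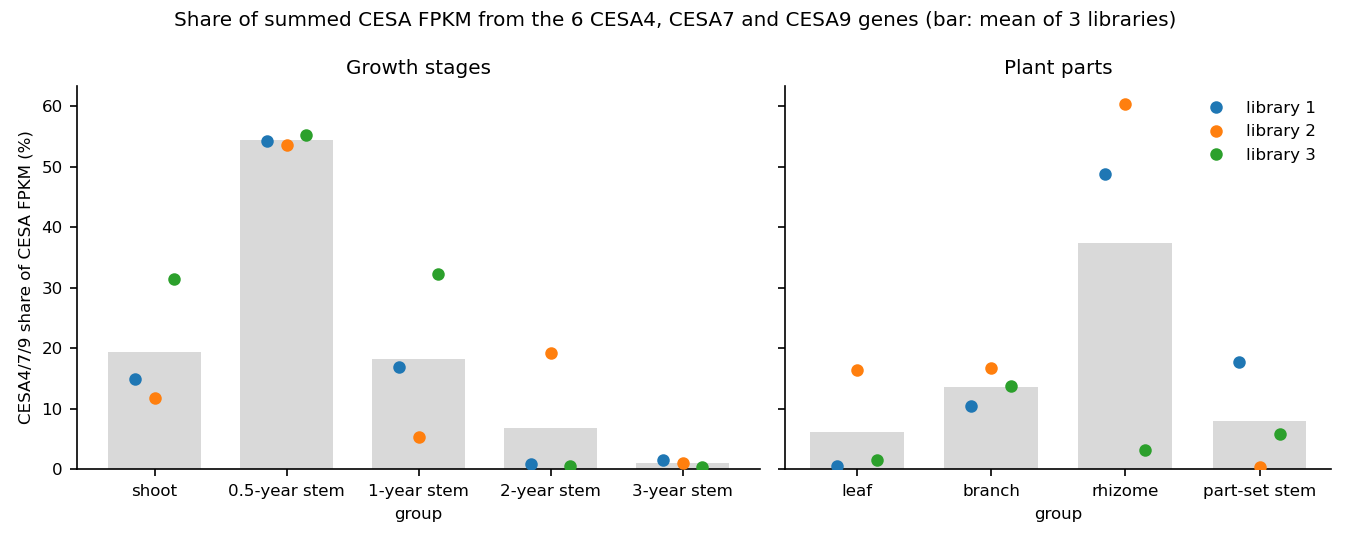
Share of the summed CESA FPKM (percent) that came from the 6 CESA4/7/9 genes in each library, with points for libraries and bars for means of 3 libraries. The 0.5-year stem libraries sit between 53.6% and 55.3% and the 3-year libraries at 1.51% or lower, while the rhizome libraries run from 3.16% to 60.3%.

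Tests were run with edgeR's quasi-likelihood test, and a gene was called higher or lower at a Benjamini-Hochberg adjusted p under 0.05 over all genes tested in the comparison. In the 0.5-year stem against the shoot, 7 of the 42 tested members were higher and 16 were lower, where 26.5% and 27.3% of all tested genes were called higher and lower. Of the 6 CESA4/7/9 genes, only PH02Gene15083 was called, with 45.2 FPKM on average in the 0.5-year stem and 15 FPKM in the shoot (log2 change 1.97 ± 0.76 SE, adjusted p = 0.0405). Its call ended without shoot library 1 or 2 or any of the 0.5-year libraries (adjusted p 0.0745 to 0.115). It also ended under 4 alternatives of other kinds, the summed 0.5-year libraries included. PH02Gene14733 had the largest fitted change of the 6, 2.23 ± 1.12, and missed the threshold (adjusted p = 0.108). With only the 6 libraries of this comparison in the fit, the 5 other genes were called too.

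In the 1-year against the 0.5-year stem, 4 members were higher and 11 lower, where 14.4% and 16% of all tested genes were called. The 3 CESA4/7/9 genes called were lower: PH02Gene15083 (log2 change -3.24 ± 0.80, adjusted p = 0.00813), PH02Gene19209 (-3.14 ± 1.09, adjusted p = 0.0423) and PH02Gene24001 (-3.12 ± 1.06, adjusted p = 0.0384). The other 3, PH02Gene14733, PH02Gene24930 and PH02Gene25266, had fitted changes of -3.17, -2.89 and -3.10 and adjusted p of 0.0532, 0.0504 and 0.064, so the line between called and not called genes falls among like values. With the 0.5-year libraries summed none of the 6 was called (adjusted p 0.0911, 0.205 and 0.189 for the 3 above). The calls of PH02Gene19209 and PH02Gene24001 also ended without any 1 of the 0.5-year libraries, 1-year library 1 or 1-year library 2 (adjusted p 0.0736 to 0.132), and that of PH02Gene19209 without 1-year library 3 (0.053).

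In the 2-year against the 1-year stem no member was called, with 4 at an unadjusted p under 0.05 in edgeR and 1 called higher by DESeq2, where 1.03% of all tested genes were called higher and 0.474% lower. 2-year library 2 decided that result. Without it 7 members were called lower, the 6 CESA4/7/9 genes, with log2 changes from -4.50 to -5.87, and PH02Gene30488, a CESA1 gene, at -2.39. In the 3-year against the 2-year stem no member was called either, with 12 at an unadjusted p under 0.05, among them all 6 CESA4/7/9 genes; DESeq2 called 2 lower, and edgeR called 0.0% of all genes higher and 0.00677% lower. The 3-year stem set against the 1-year stem, a comparison added after the data were seen, gave 1 member called higher and 8 lower, where 4.56% and 5.48% of all tested genes were called. 5 of the CESA4/7/9 genes were among the 8, with PH02Gene25266 at -6.27 ± 1.52 (adjusted p = 0.0219); without 1-year library 3 or any 3-year library its adjusted p was 0.0503 to 0.0947. None of these 9 calls held when each library was left out in turn, and with 1 library left out 0 to 6 members were lower.

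Between the 3-year stem and the shoot, 6 members were higher and 27 lower, where 30.2% of all tested genes were called higher and 35.0% lower. The median log2 change of the 42 tested members was -1.08, against -0.12 over all tested genes. All 6 CESA4/7/9 genes were lower, from -4.79 ± 1.28 for PH02Gene14733 (adjusted p = 0.00436) to -8.15 ± 1.6 for PH02Gene25266 (adjusted p = 0.000465), and each kept its call under every alternative run. Of the 27 lower members 24 kept their call under every alternative in which they were tested, as did 4 of the 6 higher ones. These counts include PH02Gene10081 (lower) and PH02Gene44464 (higher). Both passed the filter only with the group where they were high, so their calls are descriptions. In the 0.5-year stem against the shoot 2 of the 7 higher and 5 of the 16 lower calls were kept, that of PH02Gene33914 among the lower. PH02Gene33914 passed the filter only with its shoot and 1-year libraries together, so its call is a description too. Kept calls were 0 of 4 and 3 of 11 in the 1-year against the 0.5-year stem, and 0 of 1 and 0 of 8 in the 3-year against the 1-year stem. Only comparisons with the 0.5-year stem had the alternative of summed libraries, so these counts are not alike. With libraries left out in turn, 4 of 6 and 24 of 27 calls held in the 3-year stem against the shoot. By that measure 3 of 7 and 8 of 16 held in the 0.5-year stem against the shoot, and 2 of 4 and 6 of 11 in the 1-year against the 0.5-year stem.

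**Figure D3:**
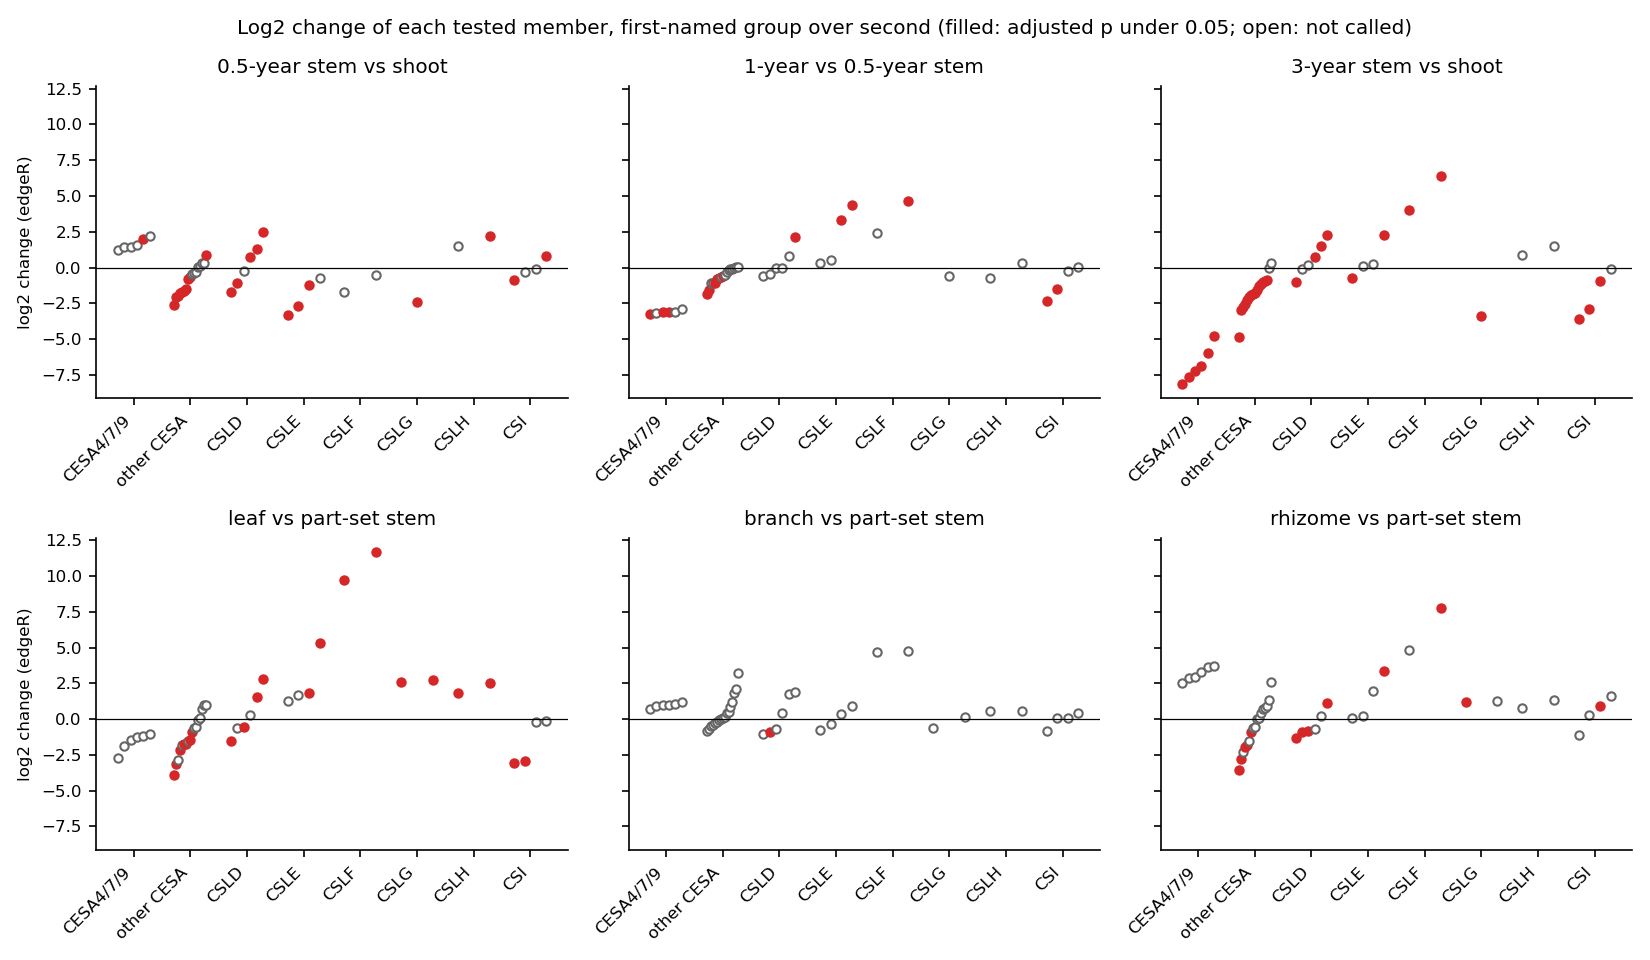
Fitted log2 change (edgeR) of each tested member in 6 comparisons, by subfamily, with the first-named group over the second; filled points had an adjusted p under 0.05 and open points did not. In the 3-year stem against the shoot every CESA4/7/9 point is filled and below 0; the CSLF points in leaf and rhizome are fitted against a part-set stem at 0 in all 3 libraries and give no bound on the fold.

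In the plant parts the CESA4/7/9 genes varied strongly between libraries of 1 part. Their summed FPKM was 0.410, 27.2 and 1.44 in leaves, 26.3, 78.0 and 60.9 in branches, 188, 451 and 4.11 in rhizomes, and 53.5, 0.688 and 19.9 in the part-set stem. Every part overlapped the part-set stem. PH02Gene14733 had 52.2, 127 and 1.41 FPKM in rhizomes, against 15.4, 0.282 and 7.23 FPKM in the part-set stem. None of the 6 was called in leaf, branch or rhizome. Their fitted changes in rhizome were 2.51 to 3.72, and without rhizome library 3 the genes PH02Gene15083, PH02Gene24001 and PH02Gene24930 were called higher (4.2, 3.86 and 4.30, adjusted p 0.00938, 0.0444 and 0.0444). The lignin enzyme sums were 611, 839 and 465 FPKM in rhizomes and 403, 466 and 534 FPKM in the part-set stem. Rhizome library 3 was thus lowest in its part for both groups of genes. In the part-set stem they did not go together, since library 1 had the highest CESA4/7/9 sum and the lowest lignin enzyme sum. The part of tissue make-up in this was not tested.

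The other CESA genes, most of them numbered as rice CESA genes of primary walls, were highest in the shoot. Their summed FPKM was 1205, 1779 and 1466 in the shoot, 745, 758 and 726 in the 0.5-year stem, 476, 428 and 423 in the 1-year stem, 433, 557 and 391 in the 2-year stem, and 329, 308 and 363 in the 3-year stem. The shoot and 0.5-year libraries each lay apart from all later ones. All CESA genes together averaged 1857 ± 387 FPKM in the shoot, 1630 ± 6.62 in the 0.5-year stem, 550 ± 88.6 in the 1-year stem, 506 ± 159 in the 2-year stem and 336 ± 26.5 in the 3-year stem (SD, n = 3 each). The leading gene differed by stage: the CESA8 gene PH02Gene45992 in the shoot (247 ± 82.1 FPKM), PH02Gene14733 in the 0.5-year stem (301 ± 2.55 FPKM), and the CESA2 gene PH02Gene43220 in the 1, 2 and 3-year stems (80.9, 112 and 86.1 FPKM on average).

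Of the 17 other CESA genes tested, 1 was higher and 9 lower in the 0.5-year stem than in the shoot, where 26.5% of all tested genes were higher and 27.3% lower. PH02Gene08830, a CESA5 gene, had 13.1, 15.4 and 14.3 FPKM in the 0.5-year stem, against 94.8, 146 and 88.1 FPKM in the shoot (log2 change -2.60 ± 0.28, adjusted p = 4.49e-06). PH02Gene45992 had 47.4, 48.9 and 50.5 FPKM in the 0.5-year stem, against 175, 337 and 230 FPKM in the shoot (-1.99 ± 0.25, adjusted p = 2.05e-05). In both genes every 0.5-year library was below every shoot library. These calls, and that of the CESA3 gene PH02Gene24826 (11.2 FPKM in the 0.5-year stem and 46.4 FPKM in the shoot), held under every alternative. The 2 CESA1 genes PH02Gene20766 and PH02Gene30488 were also called lower, but no longer when the 0.5-year libraries were summed (adjusted p 0.137 and 0.262); PH02Gene30488 also lost its call without shoot library 2 or any 0.5-year library (0.0872 to 0.126). The gene called higher was PH02Gene35057, a CESA6 gene, with 105, 105 and 99.7 FPKM in the 0.5-year stem, against 67.5, 89.7 and 60.7 FPKM in the shoot (0.86 ± 0.21, adjusted p = 0.00353), and it kept its call under every alternative.

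**Figure D4:**
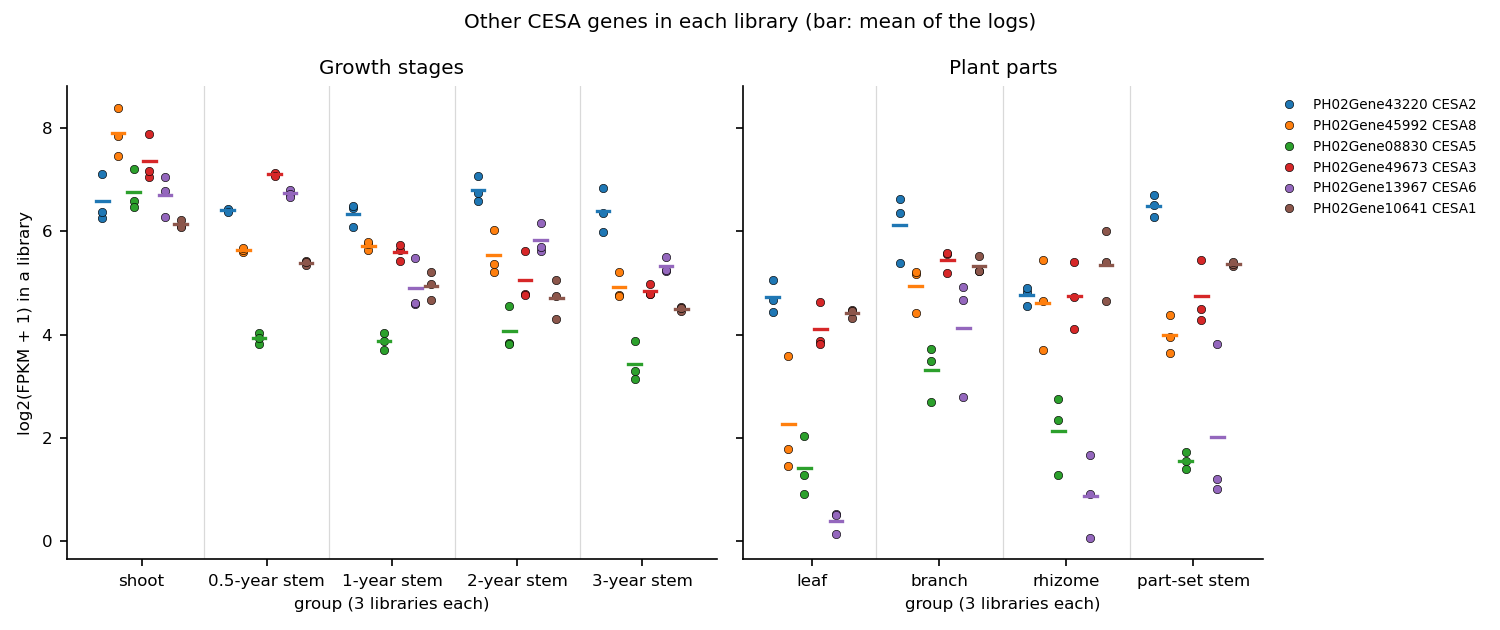
Level of 6 other CESA genes in each library, on a log2(FPKM + 1) axis, for the growth stages (left) and the plant parts (right), with points for libraries and bars for the mean of the logs of 3 libraries. PH02Gene45992 and PH02Gene08830 drop after the shoot, PH02Gene49673 and PH02Gene13967 overlap the shoot range in the 0.5-year stem and lie lower in the 1-year stem, and PH02Gene43220 lies in 1 band through all growth stages.

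In the 1-year against the 0.5-year stem 6 of the 17 were lower and 0 higher, against 16% and 14.4% of all tested genes. PH02Gene49673, a CESA3 gene, had 49.0, 42.2 and 52.2 FPKM in the 1-year stem, against 137, 139.8 and 134 FPKM in the 0.5-year stem (-1.57 ± 0.23, adjusted p = 0.000305). PH02Gene13967, a CESA6 gene, had 44.0, 23.1 and 23.4 FPKM in the 1-year stem, against 110.3, 105 and 101 FPKM in the 0.5-year stem (-1.83 ± 0.31, adjusted p = 0.000841). PH02Gene49673 averaged 170.1 ± 57.6 FPKM and PH02Gene13967 106 ± 27.7 FPKM in the shoot (SD, n = 3 each), ranges that the 0.5-year libraries overlapped, and neither was called in the 0.5-year stem against the shoot. Both calls in the 1-year stem held under every alternative, the summed 0.5-year libraries included. PH02Gene35057 was also lower in the 1-year stem (-1.05, adjusted p = 0.00247), a call that ended with the 0.5-year libraries summed (0.0616).

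Over the whole course, 15 of the 17 other CESA genes were lower in the 3-year stem than in the shoot and none was higher, where 35.0% of all tested genes were lower and 30.2% higher. PH02Gene30488 had 3.34, 4.78 and 3.06 FPKM in the 3-year stem, against 103, 216 and 135 FPKM in the shoot (-4.85 ± 0.76, adjusted p = 7.29e-05), the largest fall of the 15. PH02Gene43220 was not called: it had 63.0, 81.2 and 114 FPKM in the 3-year stem, against 75.9, 81.7 and 137 FPKM in the shoot (0.35 ± 0.25, 95% interval -0.19 to 0.90, adjusted p = 0.235). The test does not show that it was level, but its share of all CESA FPKM averaged 5.27% in the shoot, 5.14% in the 0.5-year stem, 15.2% in the 1-year stem, 23.4% in the 2-year stem and 25.4% in the 3-year stem. The second gene not called, PH02Gene38954, a CESA6 gene, was named after its values were seen. The fall of PH02Gene13967 (-0.92, adjusted p = 0.0164) ended without shoot library 1 (0.0746), 3-year library 1 (0.0516) or 3-year library 2 (0.0556).

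In the plant parts PH02Gene43220 led the CESA genes of leaf, branch and part-set stem. It had 20.7, 32.4 and 24.6 FPKM in leaves, 40.7, 98.1 and 80.7 in branches, 27.3, 22.7 and 28.9 in rhizomes, and 104, 90.5 and 76.6 in the part-set stem. Leaf and rhizome libraries all lay below every part-set stem library, and the gene was called lower in leaf (-1.72 ± 0.33, adjusted p = 0.00197) and in rhizome (-1.84 ± 0.33, adjusted p = 0.00247) under every alternative. The sum of the other CESA genes was 85.0, 138 and 91.7 FPKM in leaves, 228, 387 and 382 in branches, 198, 296 and 126 in rhizomes, and 249, 234 and 324 in the part-set stem. The 3 leaf libraries were below all libraries of branch and part-set stem.

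In leaf against the part-set stem, 10 of the 43 tested members were higher and 11 lower, where 17.5% and 19.1% of all tested genes were called. 7 of the 17 other CESA genes were lower and 0 higher. PH02Gene34577, a CESA8 gene, had 1.25, 2.49 and 0.485 FPKM in leaves, against 8.71, 7.38 and 24.1 FPKM in the part-set stem (-3.17 ± 0.71, adjusted p = 0.00518). PH02Gene45360 (CESA8), PH02Gene08325 (CESA5) and PH02Gene43220 were lower too, and these 4 calls held under every alternative. PH02Gene13967 had 0.453, 0.430 and 0.112 FPKM in leaves, against 1.3, 1.01 and 13.2 FPKM in the part-set stem (-3.89, adjusted p = 0.0352), a value that rested on part-set stem library 3: without it the change was -1.68 with an adjusted p of 0.278, and without leaf library 1, 2 or 3 the adjusted p was 0.0834, 0.0832 and 0.115.

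In rhizome against the part-set stem, 5 members were higher and 8 lower, where 14.5% and 15% of all tested genes were called. Of the other CESA genes 5 were lower and 0 higher. Besides PH02Gene43220, PH02Gene45360 had 14.1, 15.3 and 11.8 FPKM in rhizomes, against 17.8, 24 and 31.4 FPKM in the part-set stem (-0.87, adjusted p = 0.0329), a call that ended without part-set stem library 2 or 3 or rhizome library 1 or 3 (0.0605 to 0.11). In branch against the part-set stem 0 members were higher and 1 lower, where 0.489% and 0.3% of all tested genes were called. At an unadjusted p under 0.05 edgeR had 6 members, and DESeq2 and limma on log2(FPKM + 1) each called 3 higher. The median log2 change of the tested members in branch was 0.42, against -0.02 over all genes.

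Among the CSLD genes, PH02Gene17112, a CSLD2 gene, had the highest mean over the libraries of each set, but it did not lead in every plant part. PH02Gene21966, also described as CSLD2, averaged 10.2 FPKM in leaves, 8.85 in rhizomes and 15.6 in the part-set stem. PH02Gene17112 averaged 4.37, 5.65 and 13.5 FPKM there. In the growth stages PH02Gene17112 had 27, 15.5 and 11.8 FPKM in the shoot, 81.4, 80.4 and 81.1 in the 0.5-year stem, 64.3, 44.0 and 75.1 in the 1-year stem, 73.8, 73.2 and 85.7 in the 2-year stem, and 69.0, 38.9 and 78.5 in the 3-year stem. Every stem library was above every shoot library. It was higher in the 0.5-year stem than in the shoot (2.50 ± 0.35, adjusted p = 4.35e-05) and higher in the 3-year stem than in the shoot (2.29 ± 0.34, adjusted p = 4.73e-05), both under every alternative. Of the 6 tested CSLD genes 3 were higher and 2 lower in the 0.5-year stem, and 3 higher and 1 lower in the 3-year stem, each against the shoot. Of all tested genes 26.5% and 27.3% were higher and lower in the first comparison and 30.2% and 35.0% in the second, so the lower CSLD genes of the first are near that share. One of these lower genes is PH02Gene33914, whose call is a description because of the filter. PH02Gene27490, described as CSLD2 with no symbol, was one of those higher in both (1.3 and 1.52 on the log2 scale); its first call ended with the 0.5-year libraries summed (adjusted p = 0.0611). PH02Gene17112 was also high in branches, with 47.1, 52.3 and 56.1 FPKM, against 8.30, 9.60 and 22.7 FPKM in the part-set stem. The groups did not overlap, and the fitted change of 1.78 ± 0.36 missed the threshold (adjusted p = 0.0516); without part-set stem library 3 it was called (2.43, adjusted p = 0.0141).

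PH02Gene17112 had 3.45, 5.58 and 4.08 FPKM in leaves, where it was lower than in the part-set stem (-1.54, adjusted p = 0.0069) under every alternative. In rhizomes it had 4.81, 4.80 and 7.33 FPKM and was also called lower (-1.32, adjusted p = 0.0197), but not without part-set stem library 3 (-0.72, adjusted p = 0.0638) or rhizome library 1 (0.0753). The 1 member called in branch was PH02Gene21966, described as CSLD2, with 9.30, 9.58 and 8.90 FPKM in branches, against 12.7, 18 and 15.9 FPKM in the part-set stem (-0.89 ± 0.18, adjusted p = 0.0468). Its groups did not overlap, but the call ended without any 1 of the 6 libraries (adjusted p 0.0805 to 0.17).

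**Figure D5:**
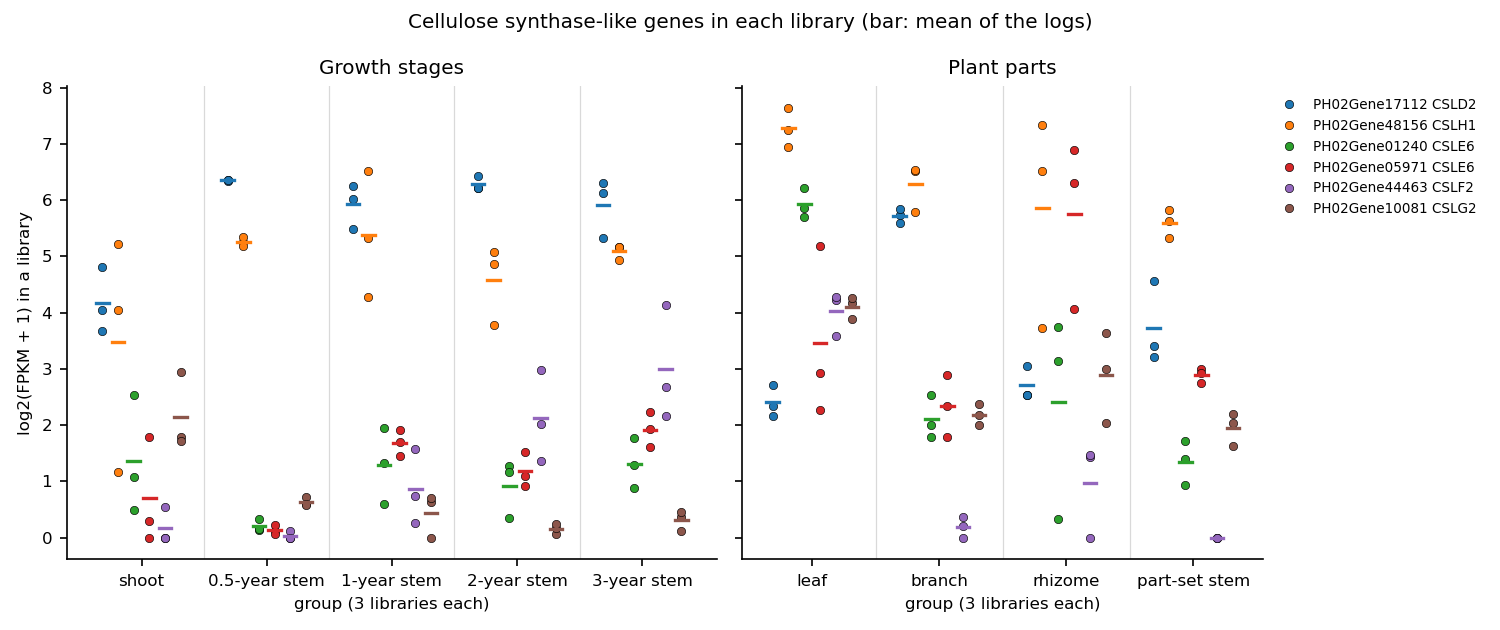
Level of 6 cellulose synthase-like genes in each library, on a log2(FPKM + 1) axis, for the growth stages (left) and the plant parts (right), with points for libraries and bars for the mean of the logs of 3 libraries. PH02Gene44463 is at 0 in the 3 part-set stem libraries and between 11 and 18.3 FPKM in leaves, PH02Gene01240 is between 51.1 and 73.7 FPKM in leaves, and PH02Gene17112 lies higher in every stem stage than in the shoot.

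The genes described as CSLF were at or near 0 in the shoot and the 0.5-year stem and, among the plant parts, were highest in leaves. PH02Gene44463, with the symbol CSLF2, had 0, 0 and 0.451 FPKM in the shoot, 0, 0.078 and 0 in the 0.5-year stem, 0.191, 0.670 and 1.99 in the 1-year stem, 1.57, 3.06 and 6.93 in the 2-year stem, and 5.39, 3.50 and 16.7 in the 3-year stem. The 3 libraries of the 3-year stem were above every library of the shoot, 0.5-year and 1-year stages. Over the 3 libraries of a stage these values rested on 14.3 expected counts in the shoot, 2.91 in the 0.5-year stem, 78.0 in the 1-year stem, 309 in the 2-year stem and 727 in the 3-year stem. It was higher in the 3-year stem than in the shoot (6.39 ± 1.14, adjusted p = 0.000214) under every alternative in which it was tested. Its call in the 1-year against the 0.5-year stem (adjusted p = 0.0304) ended without any 0.5-year library or 1-year library 3 (0.0613 to 0.143). PH02Gene44464, listed as CSFL1, stood in the 3-year stem at 1.44 FPKM on average against 0.116 FPKM in the shoot, but it passed the filter only with the 3-year libraries counted, so this is a description. These were the 2 tested CSLF genes of the superfamily as taken here, which leaves out PH02Gene46338.

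In leaves PH02Gene44463 had 17.8, 11 and 18.3 FPKM and PH02Gene44464 had 8.70, 1.87 and 6.89 FPKM, and both were at 0 in all 3 part-set stem libraries. Against a floor of 3 counts over the 3 part-set stem libraries, PH02Gene44463 was at least 375-fold higher in leaves and PH02Gene44464 at least 94.0-fold higher. Both genes passed the filter only with the leaf libraries counted, so their calls add nothing to these values. Rhizome libraries had 1.72, 0 and 1.78 FPKM of PH02Gene44463, at least 28.9-fold higher than the part-set stem by the same floor (adjusted p = 0.0196). That call ended without part-set stem library 2 (0.0507) or rhizome library 1 (0.0528), and under 3 alternatives of other kinds. Branches had 0.15, 0.281 and 0 FPKM.

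PH02Gene48156, with the symbol CSLH1, was on average the most abundant CSL member in every plant part. It had 151, 199.4 and 123 FPKM in leaves, 54.6, 90.3 and 91.4 in branches, 90.2, 12.2 and 161 in rhizomes, and 48.7, 39.3 and 55.5 in the part-set stem. Leaf libraries did not overlap those of the part-set stem, and the call (1.80 ± 0.63, adjusted p = 0.0436) ended without any 1 of the 6 libraries (0.0672 to 0.125). PH02Gene49258, with the symbol CSLH2, had 14.5, 23.7 and 11.4 FPKM in leaves, against 3.25, 1.77 and 4.14 FPKM in the part-set stem (2.50 ± 0.60, adjusted p = 0.00737), a call that every alternative kept. In the growth stages PH02Gene48156 varied widely in the shoot, with 1.25, 15.5 and 36.1 FPKM there, and was called in no stage comparison. Without shoot library 3 it was called higher in the 0.5-year stem (2.48, adjusted p = 0.0179) and in the 3-year stem (2.47, adjusted p = 0.0157), each against the shoot. PH02Gene49258 had 5.52, 7.39 and 6.84 FPKM in the 0.5-year stem, against 0, 1.80 and 3.74 FPKM in the shoot (2.22 ± 0.86, adjusted p = 0.0411), a call that ended without shoot library 1 or 2 or any 0.5-year library (0.0547 to 0.0896).

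CSLE and CSLG genes were, on average, most abundant in leaves and rhizomes. The CSLE6 gene PH02Gene01240 had 57.1, 51.1 and 73.7 FPKM in leaves, against 1.62, 0.914 and 2.31 FPKM in the part-set stem (5.30 ± 0.93, adjusted p = 0.00124). A second CSLE6 gene, PH02Gene05971, had 78.0, 15.7 and 118 FPKM in rhizomes, against 6.96, 5.69 and 6.60 FPKM in the part-set stem (3.36 ± 0.83, adjusted p = 0.0127), and without part-set stem library 2 its adjusted p was 0.0501. The 2 genes of 1 symbol thus led in different parts: PH02Gene01240 had 7.79, 0.257 and 12.5 FPKM in rhizomes, and PH02Gene05971 had 35.4, 6.56 and 3.84 FPKM in leaves. PH02Gene10081, a CSLG2 gene, had 16.9, 18.2 and 13.8 FPKM in leaves, against 2.08, 3.13 and 3.57 FPKM in the part-set stem (2.57 ± 0.38, adjusted p = 0.000468). The leaf calls of PH02Gene01240 and PH02Gene10081 held under every alternative.

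Of the 10 members called higher in leaf, 4 passed the filter only with the leaf libraries counted. The other 6 were both CSLH genes, the CSLG gene PH02Gene10081, 2 of the 4 CSLE genes and 1 of the 6 CSLD genes. 2 of the 6 CSLD genes, PH02Gene17112 and PH02Gene21966, were lower. Of all tested genes 17.5% were higher and 19.1% lower in leaf, so the count of 1 higher CSLD gene is near that share. Markers of green tissue (chlorophyll a-b binding proteins and the small subunit of Rubisco) summed to 8424, 10473 and 10564 FPKM in leaves, against 3131, 1899 and 821 FPKM in the part-set stem, and 10 of 14 of them were called higher and none lower. The part of green cells in the CSL values was not tested. Rhizome library 2 was the lowest rhizome library for PH02Gene01240, PH02Gene05971, PH02Gene48156 and PH02Gene49258 alike. Without it PH02Gene01240 (2.51, adjusted p = 0.00154), PH02Gene48156 (1.27, adjusted p = 0.0186) and PH02Gene49258 (1.78, adjusted p = 0.0108) were also called higher in rhizome than in the part-set stem.

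In the growth stages the CSLE genes dipped in the 0.5-year stem. Their summed FPKM was 18.7, 15.7 and 29.2 in the shoot, 7.29, 7.22 and 7.30 in the 0.5-year stem, 11.9, 16.5 and 11.7 in the 1-year stem, 10.9, 14 and 11.2 in the 2-year stem, and 17.2, 12.8 and 13.3 in the 3-year stem. The 0.5-year libraries were below all others, and 3 of the 4 tested genes were lower there than in the shoot, where 27.3% of all tested genes were lower. PH02Gene01239, a CSLE6 gene, had 4.25, 3.80 and 4.13 FPKM in the 0.5-year stem, against 8.97, 12.7 and 14.9 FPKM in the shoot (-1.22 ± 0.22, adjusted p = 0.000391), the 1 call of the 3 that every alternative kept. Without shoot library 3 the other 2 ended, PH02Gene01240 at -2.01 (adjusted p = 0.0606) and PH02Gene05971 at -0.04 (adjusted p = 0.977). The call of PH02Gene05971 also ended without any 0.5-year library (0.0744 to 0.133), and both ended with those libraries summed. In the 1-year against the 0.5-year stem 2 CSLE genes were higher, PH02Gene05971 (4.38 ± 1.05, adjusted p = 0.00682) and PH02Gene01240 (3.33, adjusted p = 0.0174), at 2.25 and 1.63 FPKM on average in the 1-year stem against 0.096 and 0.156 FPKM in the 0.5-year stem. Both calls ended with the 0.5-year libraries summed (0.127 and 0.183), and that of PH02Gene01240 also without 0.5-year library 1 or 2 or 1-year library 2 (0.0645 to 0.0712).

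The summed level of the CSI genes was lower at each later stage. It was 55.0, 77.4 and 68.3 in the shoot, 44.6, 51.0 and 48.5 in the 0.5-year stem, 33.3, 35.9 and 32.7 in the 1-year stem, 24.5, 27.8 and 21.7 in the 2-year stem, and 12.6, 19.99 and 17.5 in the 3-year stem. No library of 1 stage overlapped one of another stage. PH02Gene16250, a CSI3 gene, had 24.5, 29.8 and 26.0 FPKM in the shoot, 11.7, 11.2 and 11 in the 0.5-year stem, 5.37, 4.35 and 2.68 in the 1-year stem, 2.41, 2.60 and 2.57 in the 2-year stem, and 1.90, 1.45 and 1.28 in the 3-year stem. It was lower in the 0.5-year stem than in the shoot (-0.89 ± 0.23, adjusted p = 0.00515), lower in the 1-year than in the 0.5-year stem (-1.48 ± 0.24, adjusted p = 0.000551) and lower in the 3-year stem than in the shoot (-3.60 ± 0.26, adjusted p = 6.66e-08). The first of these calls ended with the 0.5-year libraries summed (0.102), and the other 2 held under every alternative. The CSI1 gene MSTRG.25298 went the other way at first, at 18.3 FPKM on average in the 0.5-year stem against 13.2 FPKM in the shoot (0.83 ± 0.25, adjusted p = 0.0114). That call ended without shoot library 1 and under 3 alternatives of other kinds, the summed 0.5-year libraries included. In leaf 2 of the 4 CSI genes were lower, where 19.1% of all tested genes were, among them MSTRG.30041, a CSI1 gene, with 0.865, 0.770 and 0.161 FPKM, against 3.28, 5.41 and 7.55 FPKM in the part-set stem (-3.06 ± 0.56, adjusted p = 0.00152).

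Genes of the same pathway outside the superfamily were counted from words in their descriptions. Of 38 tested partners of cellulose synthesis (COBRA-like, endoglucanase and chitinase-like genes), 13 were higher and 11 lower in the 0.5-year stem than in the shoot, 0 higher and 20 lower in the 1-year than in the 0.5-year stem, and 7 higher and 23 lower in the 3-year stem than in the shoot. The word endoglucanase also matched PH02Gene49193, with the symbol GLC1, which is described as a glucan endo-1,3-beta-glucosidase and is not such a partner. The shares of all tested genes, higher and lower, were 26.5% and 27.3%, 14.4% and 16%, and 30.2% and 35.0%, so the partners of the first comparison are near them. Of 73 genes matched by words for xylan, xylosyltransferases and glucuronosyltransferases, some of which make other products (IPUT1 and GLCAT14A genes), 25 were higher and 23 lower, 5 higher and 27 lower, and 20 higher and 37 lower in the same 3 comparisons. Of 11 genes of UDP-glucose supply, the substrate of the CESA proteins, 0 were higher in any of the 3, and 3, 3 and 6 were lower. Words for regulators of secondary walls matched 33 tested genes, a GDP-mannose transporter among them. Of these, 7 were higher and 8 lower, 6 higher and 2 lower, and 11 higher and 7 lower in the same comparisons. In the first comparison the regulator counts, and the lower counts of the xylan and UDP-glucose lists, are near the shares of all tested genes. The COBRA-like gene PH02Gene20375, with the symbol BC1L6, averaged 217 FPKM in the 0.5-year stem and 7.30 FPKM in the shoot (5.29 on the log2 scale, adjusted p = 1.00e-05). COBRA-like proteins are needed for normal cellulose microfibrils. The sucrose synthase gene PH02Gene46034, whose product makes UDP-glucose from sucrose, averaged 12.9 FPKM in the 1-year stem and 108 FPKM in the 0.5-year stem (-3.12). These lists hold genes of several functions and are descriptions only.

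Markers of other tissue states moved with the stages. Expansins, which loosen the walls of elongating cells, summed to 948, 1157 and 574 FPKM in the shoot, against stage means of 94.5 to 103 FPKM in the stems, and 3 of 31 tested were higher and 26 lower in the 0.5-year stem than in the shoot, where 26.5% and 27.3% of all tested genes were. Of 17 tested genes of dividing cells 11 were lower in that comparison and none was higher. The lignin enzymes summed to 710, 684 and 722 FPKM in the 0.5-year stem, 184, 144 and 263 in the 1-year stem and 135, 199.1 and 156 in the 3-year stem, and 14 of 34 were lower and none higher in the 1-year than in the 0.5-year stem, where 16% and 14.4% of all tested genes were. Green tissue markers summed to 344, 171 and 623 FPKM in the shoot and 253, 223 and 256 in the 0.5-year stem. Stage means of this sum were 39.5 to 67.6 FPKM in the later stems. Of 13 tested, 1 was higher and 8 lower in the 1-year than in the 0.5-year stem. In the 3-year stem against the shoot 1 was higher and 11 lower, where 30.2% and 35.0% of all tested genes were. The part of these shifts in the CESA and CSL results was not tested.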

How the data were processed

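The 27 libraries came as 1 deposited table for the growth stages and 1 for the plant parts, each with an expected count and an FPKM value per gene and library. Expected counts and FPKM were used as the authors deposited them, per the file headers; 6 deposited count columns hold the text of the second table below the first, and were read for the growth-stage rows only. HISAT2, RSEM and StringTie 1.3.1 appear in the submitters' processing notes, with no role or order; the build of the genome was not given in the sources used here. Expected counts were rounded (58.7% and 64.5% of values above 0 were whole as deposited) and fitted in R 4.3.3 with TMM scaling by edgeR 4.0.16, whose quasi-likelihood test was applied to contrasts of groups within 1 fit per set. Genes that reached 1 FPKM in 3 or more libraries, 29538 and 29630 of them, were tested two-sided, with Benjamini-Hochberg adjustment within each comparison and calls at 0.05. The test was also run on simulated data, but no result of that run is given or relied on here. Alternatives used DESeq2 1.42.0, limma 3.58.1 on log2(FPKM + 1) and log2(FPKM + 0.1), other scaling and filters, and left out each library in turn. Where a call is said to end without a library, alternatives of other kinds ended some of these calls too. Sums and shares of FPKM carry no test, and folds against a group at 0 use a floor of 3 counts over the group.

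Members were named where they were among the 3 largest called changes of a comparison in either direction (mean of at least 5 FPKM in the higher group), the most abundant of their subfamily, or a CESA gene with 20 FPKM or more in a group. The grouping of CESA4, CESA7 and CESA9 by symbol was chosen after the tables were seen, since few descriptions name a wall type. The members, lists and tests were chosen with earlier results of these data known. Library numbers did not pair the samples: deviations of same-numbered libraries correlated at -0.107 to 0.209 in the growth stages and -0.142 to 0.194 in the plant parts.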

Additional observations from a re-analysis of the deposited data

How the results depend on the processing

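Over the 35 named members and all comparisons, 93 of 288 changes were called, and of 4040 values under alternatives 0 reversed, 233 lost and 96 gained a call. Calls involving the 0.5-year stem depended on how its 3 near-alike libraries were counted, and 2-year library 2 decided the result of the 2-year against the 1-year stem. With libraries left out in turn, no call held in the 3-year against the 1-year stem or in branch. In rhizome 1 of 5 higher and 4 of 8 lower calls held by that measure. The causes were not tested. FPKM scaling put the median change of all genes at -0.28 (0.5-year stem against shoot), -0.47 (3-year stem against shoot), -0.16 (2-year and 3-year against 1-year stem) and 0.11 (branch), against -0.04, -0.12, -0.05, -0.04 and -0.02 in edgeR, and limma on log2(FPKM + 1), which changes the model as well as the scaling, split all genes 6140 higher to 11502 lower (edgeR 7818 to 8073), 6601 to 13996 (8927 to 10336), 271 to 545 (303 to 140), 1040 to 2901 (1348 to 1618) and 797 to 127 (145 to 89). Depth limits the low CSLF, CSLE and CSLG members, where 3 counts are up to 0.348 CPM in the growth stages and up to 0.479 CPM in the plant parts.

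Counts that moved are given as higher then lower, or in 1 direction. With the 0.5-year libraries summed, the 0.5-year stem against the shoot had 2 and 5 members and 4064 genes lower, and the 1-year against the 0.5-year stem 0 and 3 members and 676 and 1461 genes. DESeq2 gave 1 member higher and 1198 and 569 genes (2-year against 1-year stem), 2 members lower and 25 and 63 genes (3-year against 2-year), 0 members and 2335 genes higher (3-year against 1-year), and 3 members higher with 1189 and 597 genes (branch). RLE scaling gave 1 gene lower (3-year against 2-year) and 0 members lower (branch). Limma on log2(FPKM + 0.1) gave 4 members higher (0.5-year stem against shoot), 166 and 468 genes (2-year against 1-year), 1 gene higher (3-year against 2-year), 797 and 3135 genes (3-year against 1-year), 1 and 0 members and 508 genes higher (branch), and 3 members higher (rhizome). Limma on log2(FPKM + 1) gave 2 members higher (1-year against 0.5-year), 545 genes lower (2-year against 1-year), 4 genes higher (3-year against 2-year), 2901 genes lower (3-year against 1-year), 3 and 0 members and 797 genes higher (branch), and 3 members higher (rhizome). A mean FPKM of 5 or more gave 4 members higher and 4862 and 5176 genes (0.5-year stem against shoot), 0 members higher and 3136 genes lower (1-year against 0.5-year), 2 members higher and 5559 and 6149 genes (3-year stem against shoot), 0 members higher (3-year against 1-year), 5 and 7 members (leaf), 1 and 0 members and 77 genes higher (branch), and 3 and 5 members (rhizome). No expression filter gave 1 and 0 members (branch). With only the 6 libraries compared there were 11 members higher (0.5-year stem against shoot), 17 lower (1-year against 0.5-year), 88 and 22 genes (2-year against 1-year), 0 genes lower (3-year against 2-year), 1 and 0 members and 390 genes higher (branch), and 1 and 2 members and 1560 and 2009 genes (rhizome). The replicate block, which the library numbers do not justify, gave 6 and 15 members (0.5-year stem against shoot), 5 and 27 (3-year stem against shoot), 8 and 10 (leaf) and 5 and 8 (rhizome), 0 genes lower (3-year against 2-year), and in branch 0 members lower and 14 and 10 genes.

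Leaving out 1 library at a time, members higher and members lower, then genes higher and genes lower, ranged as follows. They were 3 to 8, 14 to 16, 6789 to 8727 and 6783 to 8500 (0.5-year stem against shoot), 2 to 4, 7 to 8, 2752 to 3895 and 3326 to 4361 (1-year against 0.5-year), and 0 to 1, 0 to 7, 13 to 602 and 2 to 445 (2-year against 1-year). They were 0 to 0, 0 to 0, 0 to 1 and 0 to 1 (3-year against 2-year), 4 to 7, 24 to 27, 8239 to 9386 and 9354 to 10333 (3-year stem against shoot), and 0 to 1, 0 to 6, 358 to 934 and 326 to 1129 (3-year against 1-year, added after the data were seen). In the plant parts they were 6 to 8, 7 to 10, 4008 to 4404 and 3991 to 5043 (leaf), 0 to 2, 0 to 0, 1 to 221 and 1 to 85 (branch), and 1 to 9, 4 to 8, 2577 to 5187 and 2743 to 5048 (rhizome).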

Other observations

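The other wall glucan and mannan synthases, whose descriptions do not hold the words cellulose synthase, include CSLA mannan synthases, CSLC xyloglucan synthases, mixed-linked glucan synthases and callose synthases. Of 46 tested, 5 were higher and 17 lower in the 0.5-year stem than in the shoot, 2 higher and 16 lower in the 1-year than in the 0.5-year stem, and 9 higher and 28 lower in the 3-year stem than in the shoot. Of all tested genes 26.5% and 27.3%, 14.4% and 16%, and 30.2% and 35.0% were higher and lower in these comparisons. PH02Gene34473, with the symbol CSLA1, averaged 0.108 FPKM in the 0.5-year stem and 51.9 FPKM in the shoot (edgeR log2 change -8.39). PH02Gene20970, with the symbol CSLC9, averaged 121 FPKM in the 0.5-year stem and 15.9 FPKM in the shoot (3.28), and 23.8 FPKM in branches and 1.10 FPKM in the part-set stem (4.29). In the plant parts 12 of 35 tested were higher and 1 lower in rhizome than in the part-set stem, and 1 was higher and 5 were lower in leaf, where 14.5% and 15% of all tested genes were higher and lower in rhizome and 17.5% and 19.1% in leaf. PH02Gene24333, with the symbol CALS7, a callose synthase known from sieve plates in Arabidopsis, averaged 27.9 FPKM in rhizomes and 1.53 FPKM in the part-set stem.

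Different sucrose synthase genes stood out in leaf and in rhizome, each against the part-set stem. PH02Gene04423, with the symbol SUS1, averaged 8.05 FPKM in leaves and 313 FPKM in the part-set stem (-5.19), and PH02Gene09591, with the symbol SUS2, averaged 285 FPKM in rhizomes and 33.2 FPKM in the part-set stem (3.06). Of the 8 tested genes of UDP-glucose supply 4 were higher and 0 lower in rhizome, and 2 higher and 2 lower in leaf, the leaf counts being near the shares of all tested genes given above.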
